A study of Homo sapiens with 7 samples.

Results

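The RNA-seq libraries described here were made from esophageal squamous carcinoma cells in which a transcription factor or a long non-coding RNA had been silenced by shRNA, and the report follows 42 cytokines, chemokines and nuclear factor kappa B (NF-kB) targets of epithelial cells through them. The members were named in a list rather than picked by a value, but the list was chosen with earlier results of these data known. A member counted as detected when its transcripts summed to at least 10 estimated counts in at least 1 library. Of the 42 members, 41 had a transcript that the annotation could name and 40 were detected, against 27274 detected genes in the whole series. CCL5 was not analysed here, and CXCL6 reached only 6 counts.

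There were 7 libraries, each the only library of its group. TE5 cells carried a scramble shRNA, or an shRNA against TP63, SOX2 or CCAT1, and KYSE140 cells carried a scramble shRNA or an shRNA against TP63 or SOX2. All shRNAs were delivered with a lentiviral pLKO.1 vector, scramble included, and both lines were grown in DMEM with 10% serum. Each silencing rested on 1 shRNA, and each line is a single established tumor line. TP63 and SOX2 are the master transcription factors of squamous cells, and CCAT1 is a long non-coding RNA. The study silenced them to find the genes that depend on them.

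The libraries held between 68532611 and 98036494 estimated counts. Upon TP63 silencing, TP63 fell to 25.4% of scramble in TE5 and 26.1% in KYSE140. Upon SOX2 silencing, SOX2 was at 39.6% of scramble in TE5 but at 77.4% in KYSE140, so the KYSE140 library labelled shSOX2 kept most of its SOX2 RNA. The factor that was not targeted moved as well. With shTP63, SOX2 was at 67.2% of scramble in TE5 and 105% in KYSE140. With shSOX2, TP63 was at 116% in TE5 and 127% in KYSE140. CCAT1 itself was not analysed here. Squamous epithelial markers summed to between 1140 and 30100 TPM (the deposited length-corrected unit of abundance), but KRT14, a basal keratin, stayed between 0.202 and 0.546 TPM in the TE5 libraries. Leukocyte markers summed to at most 10.4 TPM and endothelial markers to at most 9.31 TPM, in both cases highest in TE5 with shTP63. Fibroblast markers summed to between 13.3 and 44.9 TPM, mostly COL1A1, highest in KYSE140 with shSOX2. In bulk RNA, fewer cells of a type and less RNA per cell cannot be told apart.

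The run names put TE5 scramble on a flow cell of its own, and the other TE5 libraries together on lane 1 of another. KYSE140 scramble was on lane 2 and both KYSE140 knockdowns on lane 3 of that flow cell. The lane and the silencing therefore cannot be told apart in any comparison with scramble. No lane held libraries of both lines, so the lane and the line cannot be told apart in comparisons of TE5 with KYSE140. Libraries with shTP63, shSOX2 and, in TE5, shCCAT1 shared a lane within their line, and values from these same-lane comparisons are given beside the others.

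NF-kB is a family of dimeric transcription factors that is held in the cytoplasm by inhibitors such as NFKBIA until a signal from an interleukin-1, TNF or Toll-like receptor leads to their degradation. The freed dimers bind kB sites and switch on chemokines, cytokines and survival genes, together with their own inhibitors NFKBIA and TNFAIP3, which close the loop. Squamous epithelia use these genes to call in neutrophils and lymphocytes. The chemokines CXCL10 and CXCL11 are also classical targets of interferon-activated factors.

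Promoter sequences from 250 bases before to 50 bases after the transcription start were taken from RefSeq (GRCh38.p14), and 34 of the 42 members had an entry. Each promoter was searched on both strands for the kB letters GGGNNTTTCC and for the interferon-type letters TTTCNNTTTC. The kB letters were present in 14 of the 34 members (41.2%), against 1.91% of the 35116 promoters in the table and 2.33% of its genes. Since many members were listed as NF-kB targets, this share describes the list and tests nothing. The interferon-type letters were in 3 of 34 members (8.82%), CXCL10, IL1RN and IL24, against 3.57% of promoters. Absence of a match says only that these letters were not in the window.

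The windows around the matches of the CXC chemokine cluster show how alike its promoters are. In the lines below, capitals mark the kB match and each sequence runs 5′ to 3′ on the strand of its gene.
CXCL1 (chr4:73869299-73869338, plus strand): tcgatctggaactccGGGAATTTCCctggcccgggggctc
CXCL2 (chr4:74099249-74099288, minus strand): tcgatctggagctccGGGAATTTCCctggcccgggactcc
CXCL3 (chr4:74038744-74038783, minus strand): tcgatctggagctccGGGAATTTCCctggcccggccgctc
CXCL5 (chr4:73998744-73998783, minus strand): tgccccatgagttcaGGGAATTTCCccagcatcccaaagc
CXCL6 (chr4:73836573-73836612, plus strand): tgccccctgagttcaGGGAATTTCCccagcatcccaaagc

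All 5 held the same 10 letters, and they began between 91 and 78 bases before the start site. CXCL1, CXCL2 and CXCL3 shared most flanking bases with each other, as did CXCL5 with CXCL6. Their expression was far apart nevertheless, from CXCL1 at up to 236.9 TPM to CXCL6 below the detection limit.

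The inhibitors of the loop and 4 members described in the comparisons are shown next, with kB matches in capitals, except for CXCL10, where capitals mark the interferon-type match.
NFKBIA (chr14:35404806-35404845, minus strand): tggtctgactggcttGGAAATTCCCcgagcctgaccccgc
TNFAIP3 (chr6:137867177-137867228, plus strand): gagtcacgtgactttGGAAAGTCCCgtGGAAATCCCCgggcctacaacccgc
BIRC3 (chr11:102317270-102317309, plus strand): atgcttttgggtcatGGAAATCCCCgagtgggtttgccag
IL6 (chr7:22727112-22727151, plus strand): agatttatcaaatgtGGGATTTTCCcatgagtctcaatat
IL32 (chr16:3065289-3065328, plus strand): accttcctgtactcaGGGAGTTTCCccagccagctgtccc
CXCL10 (chr4:76023694-76023733, minus strand): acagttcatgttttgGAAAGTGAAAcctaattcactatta

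TNFAIP3 held 2 kB matches 12 bases apart. CXCL11, IL36RN, PTGS2 and IL1A held neither set of letters in their windows.

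**Figure D1:**
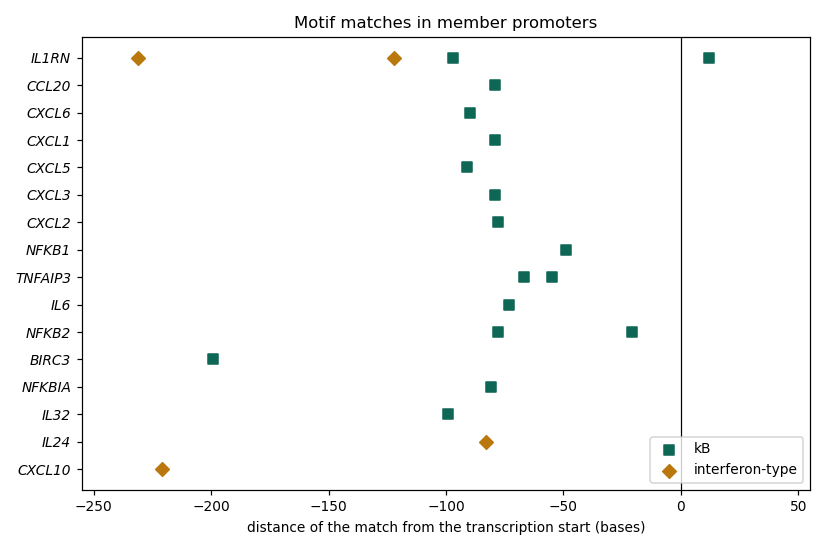
Distance in bases from the transcription start (x axis) of each kB match (squares) and interferon-type match (diamonds) in the promoters of the 16 members with a match. The kB matches lay between 99 and 21 bases before the start, except for BIRC3 at 199 bases before it and for IL1RN, whose overlapping promoters of neighbouring starts each show its matches.

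Levels between genes were compared per transcript length, as the deposited TPM. The members were expressed far more in TE5 than in KYSE140. The median member was at 15.1 TPM in TE5 scramble and 0.998 TPM in KYSE140 scramble, while the median over all detected genes was 2.52 and 2.04 TPM. In TE5 scramble 25 of the 40 detected members were at or above 10 TPM, against 34.4% of all detected genes. In KYSE140 scramble 8 members were, against 33.4% of all detected genes. LCN2 (lipocalin 2, an iron-sequestering antibacterial protein) led in TE5 scramble with 301.3 TPM, followed by TNFAIP2, SOD2 (mitochondrial superoxide dismutase) and NFKBIA with 295.2, 259.1 and 256.8 TPM. In KYSE140 scramble NFKBIA led with 144.2 TPM, and SOD2, CXCL1 and NFKB2 followed with 98.02, 65.6 and 65.38 TPM, whereas LCN2 was at 0.816 TPM.

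**Figure D2:**
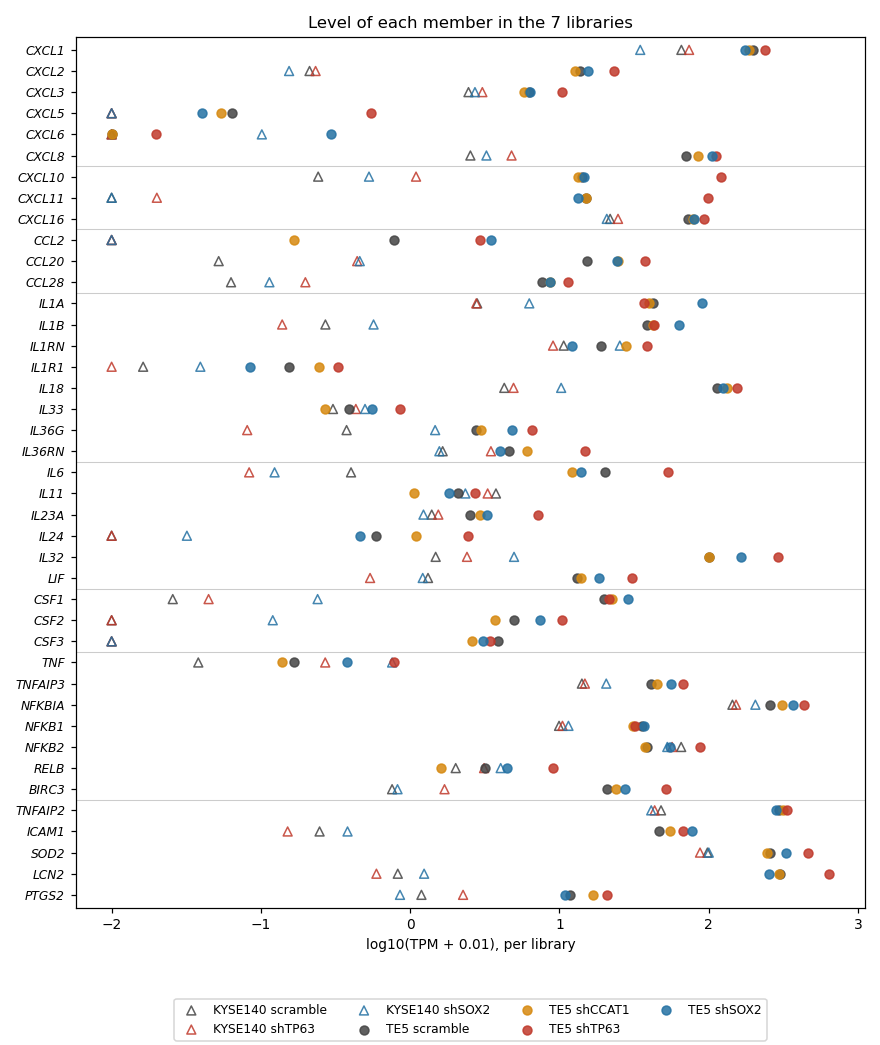
Level of each of the 41 members with a transcript, grouped by role, as log10(TPM + 0.01) in each of the 7 libraries (circles, TE5; open triangles, KYSE140; colors, shRNA). Most circles lie to the right of the triangles, with IL11, IL33, IL1RN, NFKB2, RELB and TNF among the members where they overlap.

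The difference between the lines was fitted with edgeR over the scramble, TP63 and SOX2 libraries, with the shRNA as block. This test treats the 3 libraries of a line as its replicates. With the shRNA as block, its spread is how far the line difference varied between the shRNAs. It is not a spread between repeated cultures. Of the 39 members tested, 33 were higher and 1 was lower in TE5 at a Benjamini-Hochberg adjusted p under 0.1. Over all 23438 genes, 34.3% were higher and 31.8% lower in TE5. The median difference was 3.76 on the log2 scale for the members and 0.07 for all genes. The normalised counts (scaled by TMM) of 32 of the 40 detected members were above KYSE140 in every TE5 library of the fit, as were those of 31.6% of all genes.

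The neutrophil-attracting CXC chemokines differed unequally. CXCL8, the main neutrophil attractant, had normalised counts of 220.4, 426 and 349 in KYSE140 with scramble, shTP63 and shSOX2, and of 5150.4, 7620.0 and 7831 in the same TE5 libraries. The groups did not overlap, and CXCL8 was 4.39 higher in TE5 on the log2 scale (SE 0.15, edgeR adjusted p = 2.02e-06). CXCL2 was 5.92 higher (SE 0.27, edgeR adjusted p = 5.34e-06), whereas CXCL1 and CXCL3 were 1.60 and 1.30 higher. These 3 paralogs share sequence: 13.7% of the 31-base words of CXCL1, 23.5% of those of CXCL2 and 9.2% of those of CXCL3 also occur in another gene, so some of their counts depend on how the reads were divided.

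CXCL11 and CXCL10, attractants of T cells through CXCR3, were nearly absent from KYSE140. CXCL11 had 0, 1 and 0 estimated counts there, against 11596 over the matched TE5 libraries, a ratio of 9530 with a 95% counting interval of 1710 to 376000. CXCL10 had normalised counts of 15.0, 68.6 and 37.9 in KYSE140 and of 809, 6209.8 and 846 in TE5. CXCL16, a membrane-bound chemokine present in every library, was 1.48 higher in TE5 on the log2 scale (SE 0.11, edgeR adjusted p = 4.01e-05).

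Among CC chemokines, CCL20 (attractant of CCR6-positive lymphocytes and dendritic cells) was 6.13 higher in TE5 (SE 0.42, edgeR adjusted p = 2.63e-05). CCL28, a mucosal chemokine, was 64.1-fold higher (log2 SE 0.26, edgeR adjusted p = 4.36e-06). CCL2, the monocyte attractant, had no count in the 3 KYSE140 libraries and was at least 67.1-fold higher in TE5, with the KYSE140 group set to a floor of 3 counts in all.

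The interleukin-1 family split into members restricted mainly to TE5 and members found in both lines. IL1B had normalised counts of 24.5, 11.9 and 45.2 in KYSE140 with scramble, shTP63 and shSOX2 and of 2994, 2863 and 4590.4 in TE5, a fitted log2 difference of 7.10 (SE 0.28, edgeR adjusted p = 3.05e-06). IL1A and IL18, cytokines stored as precursors in epithelium, were 3.57 and 4.18 higher. IL36G, an epithelial alarmin, was 3.25 higher (SE 0.70, edgeR adjusted p = 0.00554). By contrast the receptor antagonist IL1RN did not differ beyond its spread (0.08, SE 0.55, edgeR adjusted p = 0.913), nor did the nuclear alarmin IL33, which stayed at or below 0.842 TPM in every library. IL1R1, the signalling receptor, was scarce in both lines, at no more than 0.320 TPM.

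IL6, with a log2 difference of 7.13 (SE 0.61, edgeR adjusted p = 7.01e-05), and LIF, with 3.76 (SE 0.45, edgeR adjusted p = 0.000323), were higher in TE5. Their relative IL11 was the member called lower in TE5, at -0.77 (SE 0.29, edgeR adjusted p = 0.0512). It had normalised counts of 262.5, 195.5 and 143.1 in KYSE140 and of 115.6, 157.9 and 80.2 in TE5, so the groups overlapped, and 7 of its 12 alternative fits kept the call. IL32, an inducer of other cytokines, was 5.78 higher in TE5 (SE 0.40, edgeR adjusted p = 2.61e-05). IL23A was 1.24 higher (SE 0.33, edgeR adjusted p = 0.014). IL24 had 2 counts in KYSE140 and 265 in TE5, a ratio of 109 with a counting interval of 29.8 to 904, but 38.5% of its words also occur in FCMR.

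The colony-stimulating factors were found almost entirely in TE5. CSF1, the macrophage growth factor, was 8.42 higher on the log2 scale (SE 0.45, edgeR adjusted p = 9.23e-06). CSF2 had 4 estimated counts over the 3 KYSE140 libraries and 841 over the matched TE5 libraries. CSF3, the granulocyte factor, had none in KYSE140 and was at least 213-fold higher in TE5 with the floor of 3 counts over the group.

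The NF-kB machinery itself differed less. The precursor subunit NFKB1 was 1.44 higher in TE5 (SE 0.13, edgeR adjusted p = 9.1e-05), TNFAIP3 (A20, a ubiquitin-editing inhibitor) 1.50 higher (SE 0.18, edgeR adjusted p = 0.000398) and NFKBIA 0.74 higher (SE 0.16, edgeR adjusted p = 0.00574). NFKB2, RELB and TNF did not pass the test, with differences of -0.17, 0.36 and 0.44 and SEs of 0.24, 0.37 and 0.71. The survival gene BIRC3 stood apart from these, 4.73 higher in TE5 (SE 0.14, edgeR adjusted p = 1.75e-06).

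Of the other NF-kB targets, ICAM1, the leukocyte adhesion molecule, differed most by fit. It had normalised counts of 14.7, 10.3 and 14.7 in KYSE140 and of 7897, 10376 and 13724 in TE5, a log2 difference of 9.67 (SE 0.23, edgeR adjusted p = 8.49e-07), and 25.6% of its words occur in other genes, mostly an antisense transcript. LCN2 was 8.51 higher (SE 0.47, edgeR adjusted p = 1.08e-05). PTGS2 (cyclooxygenase-2) and TNFAIP2 were 2.98 and 2.40 higher, and SOD2 1.48 higher, all past the threshold. With the scramble libraries alone the differences ran the same way for these 5 members, between 1.14 for SOD2 and 8.98 for ICAM1.

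**Figure D3:**
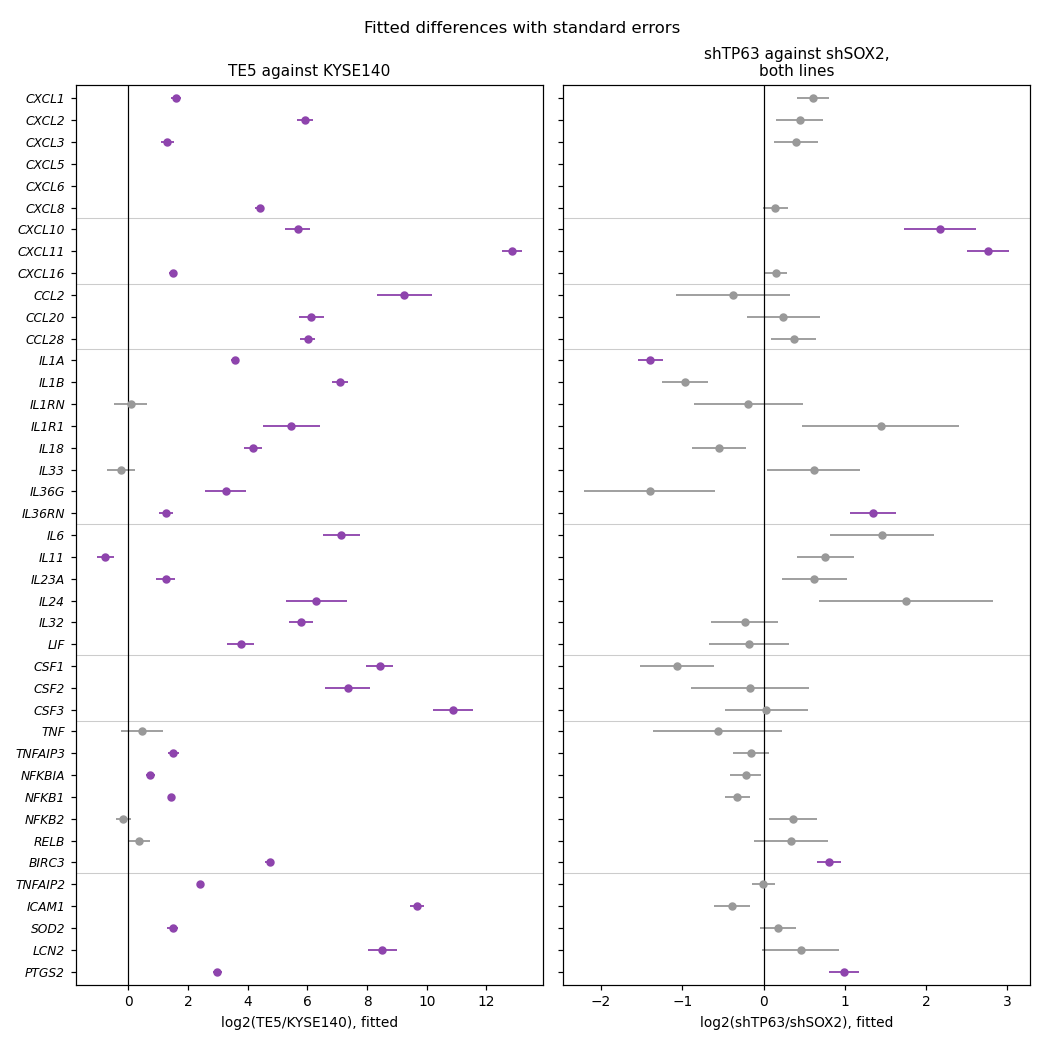
Fitted log2 difference (point) of each tested member between TE5 and KYSE140 (left) and between shTP63 and shSOX2 over both lines (right). Bars show the standard error derived from the test statistic, and purple marks an edgeR adjusted p under 0.1. On the left 33 members lie right of 0 and are called. The fitted values and bars of CXCL11, CCL2 and CSF3, with 0 or 1 counts in KYSE140, depend on the prior count. On the right 6 members are called.

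Upon TP63 silencing in TE5, 17 of 40 members rose past 1 on the log2 scale against the scramble library and none fell past -1. Over all 24405 genes with at least 10 counts in either library, 14.8% rose past 1 and 5.61% fell past -1. With at least 100 counts in either library, 14 of 37 members rose past 1, against 6.13% of 15662 genes. The median change was 0.81 for the members and 0.07 for all genes. Above 0 lay 36 of the 40 members, against 54.3% of all genes. These pairs of libraries have no replicate, so no p-value is given and the intervals cover counting error only.

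Among members with at least 100 counts, the CXCR3 ligands had the largest changes in TE5. CXCL10 went from 809 normalised counts in scramble to 6209.8 with shTP63, a log2 change of 2.94 (95% counting interval 2.83 to 3.05). It was at 713 with shCCAT1 and 846 with shSOX2, so the shTP63 library stood alone. CXCL11 went from 1227 to 7256, a log2 change of 2.56 (2.48 to 2.65), and was at 1157 and 1098 in the other knockdowns. Neither gene shares a 31-base word with another gene. The leukocyte markers summed to 5.59 TPM in TE5 scramble and 10.4 TPM with shTP63, with the pan-leukocyte marker PTPRC at 0.159 and 0.236 TPM, and the endothelial markers to 2.39 and 9.31 TPM, mostly CDH5. The fibroblast markers summed to 15.4 and 27.1 TPM, with COL3A1 at 0.244 and 1.73 TPM. Their part in these changes was not tested.

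Other ligands rose past 1 as well in TE5 with shTP63. CCL20 changed by 1.17 (1.02 to 1.31) and IL32 by 1.33 (1.28 to 1.39). IL6 changed by 1.19 (1.08 to 1.30), LIF by 1.05 (0.98 to 1.13) and IL23A by 1.35 (1.06 to 1.66). The IL-36 receptor antagonist IL36RN changed by 1.50 (1.36 to 1.65), and IL24 by 1.48 (1.04 to 1.98). At lower counts CXCL5 went from 7.3 to 65.2 normalised counts, a change of 3.0 (2.06 to 4.52), CCL2 from 24.9 to 85.3, TNF from 13.5 to 59.0, IL33 from 11.5 to 30.3 and IL1R1 from 24.0 to 81.7.

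Within the machinery, the non-canonical subunits went with them in TE5. NFKB2 went from 4915 to 10239.6 normalised counts, a log2 change of 1.06 (1.01 to 1.11), and was at 4603 and 6412 with shCCAT1 and shSOX2. RELB, its partner, changed by 1.27 (1.09 to 1.47), or by 1.01 when a transcript absent from the annotation was added to it. NFKB1 was at -0.30 (-0.34 to -0.25). The inhibitors NFKBIA and TNFAIP3 were at 0.58 (0.55 to 0.60) and 0.71 (0.66 to 0.75), and BIRC3 at 1.14 (1.09 to 1.18). LCN2 and SOD2 were at 0.91 and 0.76, and TNFAIP2 at 0.01 (-0.01 to 0.03).

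Interleukin-1 itself did not follow. IL1A was at 4751 and 3721 normalised counts in TE5 scramble and shTP63, a log2 change of -0.35 (-0.41 to -0.29). IL1B was at -0.06 (-0.14 to 0.01). IL1A, NFKB1, CSF3 and IL1B were the 4 members below 0.

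In KYSE140 fewer members responded to TP63 silencing: 7 of 32 rose past 1 and 3 fell past -1, against 9.01% and 4.27% of 21852 genes. The median change was 0.11 for the members and 0.05 for all genes. CXCL10 went from 15.0 to 68.6 normalised counts, a log2 change of 2.12 (1.28 to 3.26). IL36RN went from 166.0 to 541.5, with a change of 1.70 (1.42 to 2.00). BIRC3 and PTGS2 changed by 1.04 (0.79 to 1.31) and 1.02 (0.80 to 1.25). CCL20, IL33 and TNF also rose past 1, at no more than 30.2 normalised counts. LIF fell from 319.7 to 127.2, a change of -1.32 (-1.64 to -1.02), and IL6 and IL36G fell past -1 from 16.3 and 15.0 normalised counts. With at least 50 counts in either library 4 members rose and 1 fell, with no share over all genes given here to set beside them. With at least 100 counts, 3 of 20 rose and 1 fell, against 1.87% and 1.72% of 14401 genes.

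Several members that were well above 0 in TE5 lay elsewhere in KYSE140. NFKB2 was at -0.26 (-0.31 to -0.21) in KYSE140, and NFKBIA and TNFAIP3 were both at 0.03. IL32 was at 0.56 (0.06 to 1.10), and SOD2 and LCN2 at -0.10 and -0.55. The difference between the lines in these responses was not tested.

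**Figure D4:**
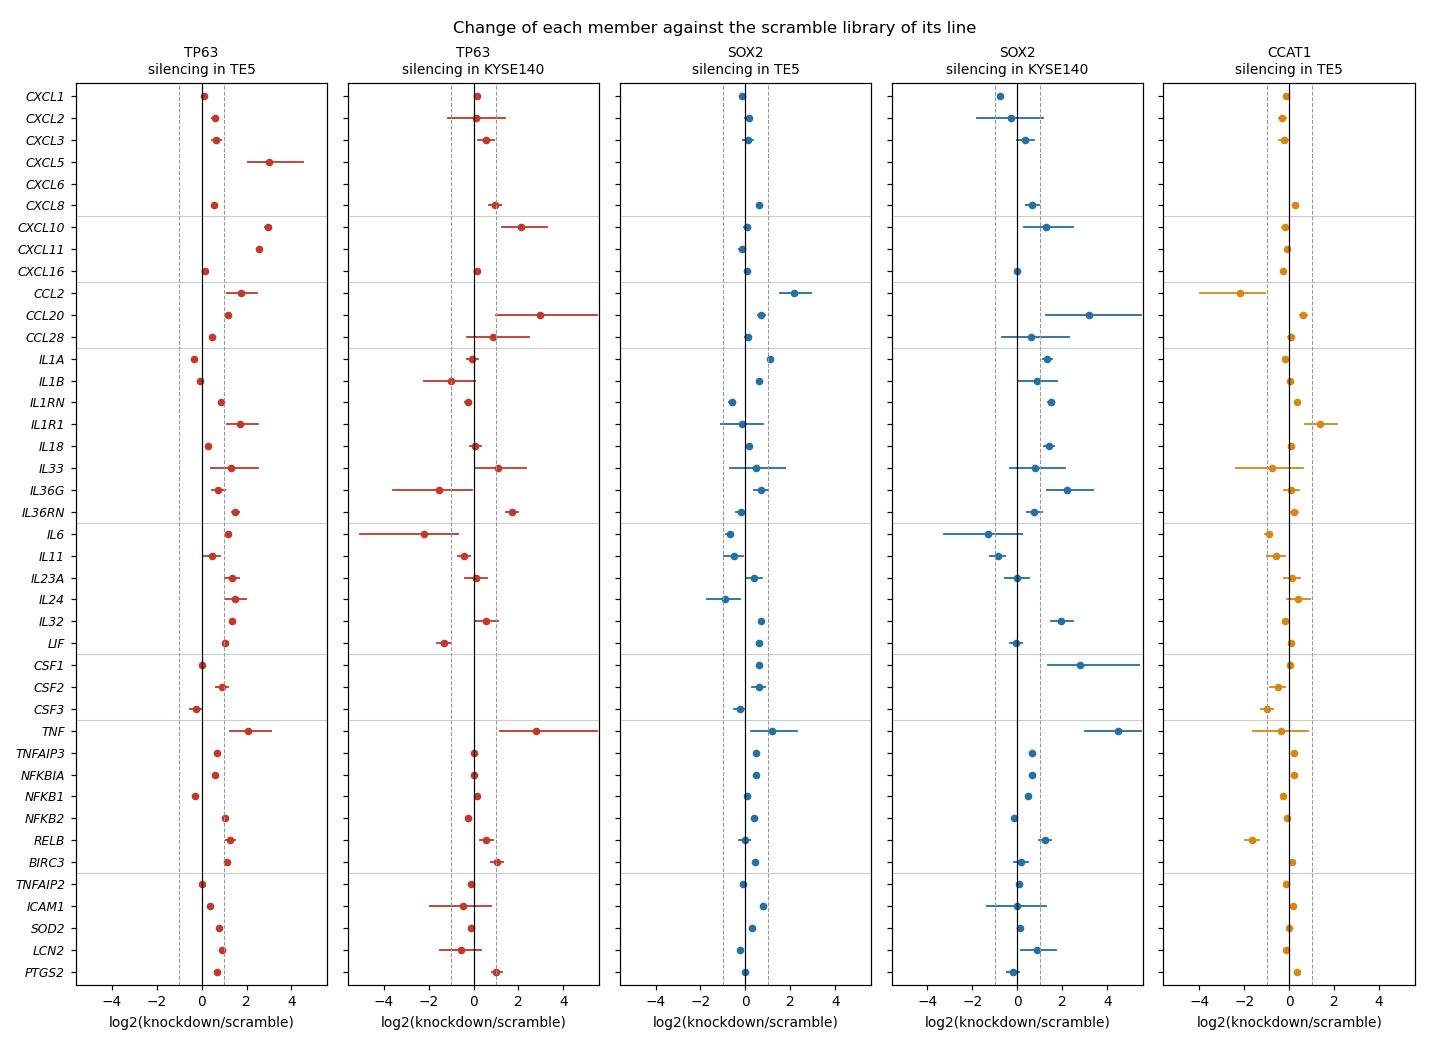
Log2 change of each member (point) against the scramble library of its line with its 95% counting interval (bar, cut at the axis limits), for members with at least 10 counts in either library. Dashed lines mark -1 and 1. In the TE5 TP63 panel 17 members lie past 1 and none past -1, and in the TE5 CCAT1 panel 1 lies past 1 and 2 past -1.

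With the lines as replicates of each other (edgeR, 6 libraries, cell line as block, 2 residual degrees of freedom), 4 of 39 members were called higher upon TP63 silencing and none lower. Over all genes 0.196% were called higher and 0.742% lower. At an unadjusted p under 0.05, 9 members were higher and 0 lower (23.1% of the members), as were 1448 and 1918 of all genes (14.4%). CXCL10 had a log2 change of 2.67 (SE 0.44, adjusted p = 0.0927), IL36RN of 1.60 (SE 0.29, adjusted p = 0.0997) and BIRC3 of 1.11 (SE 0.16, adjusted p = 0.0775), each higher with shTP63 in both lines. CXCL11 had 2.60 (SE 0.25, adjusted p = 0.0604), but with 0 and 1 counts in KYSE140 this call rested on TE5. All 4 calls were close to the threshold. None held without either scramble library, or when transcripts that the annotation does not name were kept in the fit, where their adjusted p ran from 0.287 to 0.303. Each was called in 7 or 8 of its 12 alternative fits, with adjusted p between 2.01e-09 and 1.

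Upon SOX2 silencing in TE5, 3 of 39 members rose past 1 and none fell past -1. Of 22726 genes, 6.31% rose and 4.95% fell that far, so the members' share that rose was near the background at this filter. The median was 0.15 for the members and -0.01 for all genes. With at least 100 counts in either library, 2 of 35 members rose and none fell, against 1.41% and 1.74% of 14741 genes. IL1A went from 4751 to 10190.1 normalised counts, a log2 change of 1.10 (1.05 to 1.15), and was at 4116 and 3721 with shCCAT1 and shTP63. CCL2 and TNF also rose, from 24.9 to 114.3 and from 13.5 to 31.9 normalised counts. ICAM1 was at 0.80 (0.76 to 0.84), and IL6 and IL1RN at -0.71 (-0.86 to -0.55) and -0.60 (-0.73 to -0.48).

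In KYSE140, 10 of 33 members rose past 1 with shSOX2 and 1 fell past -1, against 7.08% and 6.17% of 20747 genes. The median was 0.64 for the members and 0.06 for all genes. With at least 100 counts in either library, 5 of 20 members rose and none fell, against 2.45% and 2.21% of 13861 genes. This library kept 77.4% of its SOX2, as given above. The interleukin-1 family gave 4 of the 10: IL1A went from 352 to 892 normalised counts, a change of 1.34 (1.13 to 1.55). IL1RN went from 1024 to 2854, a change of 1.48 (1.36 to 1.60), and IL18 from 271 to 715, a change of 1.40 (1.17 to 1.64). IL36G went from 15.0 to 72.1, a change of 2.19 (1.32 to 3.35). All 7 measured members of this family were above 0, as were 23 of the 33 members and 55.7% of all genes. The interval of IL33 reached below 0, at 0.80 (-0.32 to 2.10).

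Outside that family, IL32 changed by 1.95 (1.51 to 2.46) in KYSE140 with shSOX2. RELB changed by 1.23 (0.96 to 1.50), which became 0.59 with the transcript that the annotation does not name. The 3 largest changes were at low counts. TNF went from 2.7 to 81.8 normalised counts, a change of 4.48 (3.0 to 7.99), CCL20 from 1.4 to 20.8, a change of 3.21 (1.26 to 9.32), and CSF1 from 4.1 to 34.2, a change of 2.79 (1.37 to 5.43). CXCL10 went from 15.0 to 37.9. The inhibitors NFKBIA and TNFAIP3 were at 0.64 (0.61 to 0.68) and 0.65 (0.57 to 0.74). CXCL1 went down, from 3712 to 2168 normalised counts, a change of -0.78 (-0.86 to -0.69). IL6 was the member past -1, with 16.3 and 6.1 normalised counts, and its interval reached 0.19.

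IL1A was the 1 member of 39 called in both lines together upon SOX2 silencing, with a log2 change of 1.19 (SE 0.15, edgeR adjusted p = 0.0778), higher in 2 of 2 lines. Over all genes 0.0213% were called higher and 0.124% lower. At an unadjusted p under 0.05, 10 members were higher and 1 lower (28.2% of the members), as were 899 and 1196 of all genes (8.94%). The IL1A call was lost without either scramble library (adjusted p = 0.892 without that of KYSE140 and 0.677 without that of TE5) and with unnamed transcripts kept in the fit (0.354). It held in 8 of 12 alternative edgeR and DESeq2 fits, whose adjusted p ran from 1.52e-07 to 1.

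The direct comparison of the silenced libraries shared a lane within each line. As given above, SOX2 was also at 67.2% of scramble in TE5 with shTP63. Over both lines, 5 members were higher and 1 lower with shTP63 than with shSOX2 in edgeR, against 1.8% and 2.41% of all 23438 genes. CXCL11 was 2.76 higher (SE 0.26, edgeR adjusted p = 0.0155) and CXCL10 2.17 higher (SE 0.44, edgeR adjusted p = 0.0665). IL36RN, PTGS2 and BIRC3 were 1.35, 0.99 and 0.80 higher, with SEs of 0.29, 0.19 and 0.15 and edgeR adjusted p of 0.0752, 0.0574 and 0.0583. IL1A was lower, at -1.39 (SE 0.15, edgeR adjusted p = 0.0189). CXCL11 and IL1A kept their calls without either scramble library, and the other 4 did not. CXCL11 had 1 and 0 counts in KYSE140 with shTP63 and shSOX2, so its call rested on TE5. With unnamed transcripts kept as features none of the 6 was called.

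PTGS2, which makes prostaglandins, had normalised counts of 304.7, 619 and 267.5 in KYSE140 with scramble, shTP63 and shSOX2. In TE5 it had 2500.4, 4079 and 2460.2 in the same order, and 3202 with shCCAT1. The shTP63 library was the highest in each line. For IL1A the shSOX2 library was the highest in each line, and the shTP63 library was the lowest. In KYSE140, IL1A with shTP63 lay within counting error of scramble, at -0.05 (-0.28 to 0.19).

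**Figure D5:**
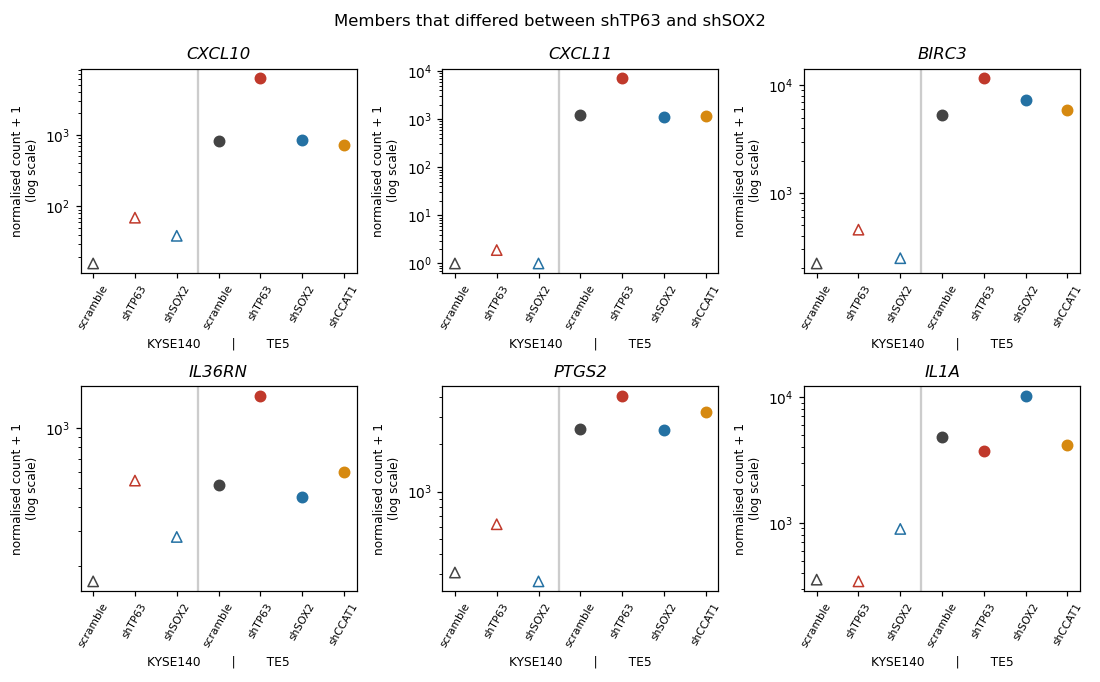
Normalised counts plus 1, on a log scale, of the 6 members that differed between shTP63 and shSOX2, in each library (open triangles, KYSE140; circles, TE5; colors, shRNA). Each panel has its own axis. The shTP63 library is the highest of its line for CXCL10, CXCL11, BIRC3, IL36RN and PTGS2, and the shSOX2 library for IL1A; CXCL11 reached 1 count in KYSE140.

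Within the lane, the lines parted. In TE5, 10 of 40 members were past 1 with shTP63 against shSOX2 and 1 past -1, while 14.3% and 6.27% of all genes were. The 10 included RELB and IL1R1, which were not past 1 with unnamed transcripts added. RELB then had 2161.8 and 1265.4 normalised counts with shTP63 and shSOX2, and IL1R1 had 141.3 and 79.4. In KYSE140, 1 of 32 was past 1 and 10 past -1, while 10.4% and 6.73% of all genes were. The 10 lower in KYSE140 included IL1A, IL1B, IL1RN, IL18 and IL36G of the interleukin-1 family, at -1.38, -1.84, -1.73, -1.31 and -3.71. IL1RN went the other way in TE5, at 1.46, and LCN2 was at 1.15 in TE5 and -1.44 in KYSE140. CXCL10 was at 2.88 in TE5 and 0.84 in KYSE140.

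A second same-lane comparison in TE5 set shTP63 against shCCAT1. There 16 of 40 members were past 1 and none past -1, against 14.5% and 9.99% of all genes, and the median was 0.84 for members and 0.00 for all genes. CXCL10, CXCL11, IL32, IL6 and IL36RN were at 3.12, 2.65, 1.52, 2.10 and 1.28. NFKB2 was at 1.15 and LCN2 at 1.06. The shTP63 library was above another silenced library of its own lane for these members, with no replicate of either.

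CCAT1 silencing in TE5 left the members near their scramble level. Of 39 members, 1 was past 1 and 2 were past -1, against 11.9% and 6.05% of 24112 genes. The members' median was -0.08, which became 0.09 when libraries were scaled by their totals, and all genes were at 0.02. CCL2 went from 24.9 to 4.8 normalised counts, a change of -2.17 (-3.97 to -1.06). RELB was at -1.65 (-1.97 to -1.35) by its named transcripts and at -0.37 with the unnamed transcript, which held 88.3% of its counts in that library. IL1R1, the member past 1, had 24.0 and 62.7 normalised counts by its named transcripts, but 58.4 and 62.8 with an unnamed transcript added, a change of 0.10. IL6 and CSF3 were at -0.91 (-1.06 to -0.76) and -0.99 (-1.28 to -0.71), and CXCL10 and CXCL11 at -0.18 (-0.32 to -0.04) and -0.09 (-0.20 to 0.03).

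The wider pathway was followed in 6 lists of 117 entries, of which 99 were tested in edgeR. Upon TP63 silencing, where 0.196% and 0.742% of all genes were called higher and lower, 0 of these were higher and 2 lower. These were GSDME, a pore-forming gasdermin, at -1.32 (SE 0.19, edgeR adjusted p = 0.0809), and IL6ST, the shared receptor chain of IL6, IL11 and LIF, at -0.97 (SE 0.14, edgeR adjusted p = 0.0775). Upon SOX2 silencing none was called. With shTP63 against shSOX2, 2 of 99 were higher and 5 lower, against 1.8% and 2.41% of all genes. BCL2L1 (an anti-apoptotic gene) and CFB (complement factor B) were 0.62 and 1.18 higher. REL, an NF-kB subunit, was at -0.79 (SE 0.15, edgeR adjusted p = 0.0585), and GSDME, IL6R, IL6ST and IL20RB were also lower. For each of these contrasts, calls over all genes ran down to 0 in the alternative fits.

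REL had 3138 normalised counts in KYSE140 scramble and 2173 with shTP63, and 3318 and 1863 in TE5. Its changes were -0.53 (-0.61 to -0.45) and -0.83 (-0.91 to -0.76), opposite in sign to NFKB2 and RELB in TE5. Upon TP63 silencing in TE5, 1 of 12 genes in the list of kinases, subunits and inhibitors was past 1 and none past -1. Over all genes 14.8% and 5.61% were. The 1 gene was the kinase MAP3K14, which drives NFKB2 processing, at 1.02 (0.86 to 1.19). In TE5 it had 2.588 TPM with scramble, 6.694 with shTP63, 4.925 with shSOX2 and 3.679 with shCCAT1. MAP3K14 was at 2.13 (1.77 to 2.51) in KYSE140 with shSOX2.

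Between the lines, 60 of the 99 pathway genes were called higher and 16 lower in TE5, beside the 34.3% and 31.8% of all genes given above. The list of other NF-kB targets had 21 of 28 higher and 4 lower, with a median of 2.27 on the log2 scale. The kinases, subunits and inhibitors had 3 of 12 higher and 5 lower, with a median of -0.23. Receptors and adaptors had 18 of 29 higher and 3 lower, and inflammasome genes 6 of 9 higher and 0 lower.

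Transcript shares are described for members chosen after their values were seen. The leading transcript was not the same in every library for NFKB1, NFKB2, TNFAIP2 and IL32, among others. For IL18, whose leading transcript was the same throughout, ENST00000524595 held 9.7% of the estimated counts in KYSE140 scramble, 32.0% with shTP63 and 8.3% with shSOX2. In TE5 it held 3.3% in scramble, 11.5% with shTP63, 2.4% with shSOX2 and 3.7% with shCCAT1. Its share was highest in the shTP63 library of each line, while the IL18 total was at 0.08 and 0.29 in KYSE140 and TE5. For TNFAIP2, ENST00000560869 held between 54.2% and 60.7% in the KYSE140 libraries and between 22.9% and 34.1% in the TE5 libraries. These shares come from the estimated division of reads between transcripts and have no replicate.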

How the data were processed

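RNA-seq libraries of TE5 (4) and KYSE140 (3) cells were analysed, 1 per group. The authors quantified 100 bp paired-end reads by pseudoalignment (Kallisto, version not given in the sources used here) against Ensembl transcripts on hg19. The deposited files hold, per transcript, an estimated count that is not scaled between libraries. They also hold TPM, which the authors' tool scales to the library and the effective length. Estimated counts were summed to genes through GENCODE 44 (hg19), which named 182863 of 196354 transcripts and at least 93.45% of the counts of each library. The rest were left out of sizes and tests. The count totals ranged from 68532611 to 98036494. The members and gene lists were chosen with earlier results of these data known.

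Counts were scaled by TMM. Each knockdown was compared with the scramble library of its line as log2((shRNA + 1)/(scramble + 1)), for genes with 10 or more counts in either, with exact 95% binomial intervals of the count ratio, which cover counting error only. edgeR 4.0.16 (R 4.3.3) quasi-likelihood tests used counts rounded to whole numbers from 6 libraries, filterByExpr, a line or shRNA block and Benjamini-Hochberg adjustment (threshold 0.1). Its p-values treat lines or shRNA libraries as replicates. The SE given with a fitted change was derived from the test. It is the size of the change divided by the square root of the F statistic. The script was tested on simulated data. DESeq2 1.42.0, other scalings, filters and pseudocounts, and the removal of each library were the alternatives. Named were members called in a fit, members past 1 or -1 with 100 counts, NFKBIA, TNFAIP3 and the most abundant member of each role; others are given by range or as context. Pathway genes were named where called. Promoters came from RefSeq (GRCh38.p14).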

Additional observations from a re-analysis of the deposited data

Results flagged for a closer look

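Members whose counting intervals lay on opposite sides of 0 in the lines, with at least 100 counts in each pair and a difference over 1, are given here. The difference was not tested in any of them, since each line has 1 library per shRNA.

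Upon TP63 silencing, LIF was at 1.05 in TE5 and -1.32 in KYSE140, a difference of 2.38 on the log2 scale. NFKB2 was at 1.06 and -0.26, a difference of 1.32, and IL1RN at 0.86 and -0.25, a difference of 1.11. Upon SOX2 silencing, IL1RN was at -0.60 in TE5 and 1.48 in KYSE140, a difference of -2.08. In both comparisons with scramble the lane cannot be told apart from the silencing. Between the silenced libraries of a lane, IL1RN was at 1.46 in TE5 and -1.73 in KYSE140 (shTP63 against shSOX2).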

How the results depend on the processing

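Scaling by library totals moved all log2 changes by 0.14 upon TP63 silencing and 0.17 upon CCAT1 silencing in TE5. Of all counts of members recomputed, 37 moved by over 1.5 times and 91 did not. With 100 counts required, a setting chosen after seeing the data, 5 of 20 members were higher (10 before) upon SOX2 silencing in KYSE140. There 0 were lower (1 before). Upon TP63 silencing in KYSE140, 3 of 20 were higher (7 before) and 1 lower (3 before). The shares over all genes for both are given above. Upon CCAT1 silencing, 0 of 34 were higher and 1 lower, against 2.17% and 2.14% of 15416 genes. With 50 counts required, 4 members were higher and 1 lower upon TP63 silencing in KYSE140 (7 and 3 before), 0 lower upon SOX2 silencing in KYSE140 (1 before; 0 also with a pseudocount of 5) and 1 lower upon CCAT1 silencing (2 before). With deposited TPM, or with unnamed transcripts added by file order, 0 were higher and 1 lower upon CCAT1 silencing. Shares over all genes are not given for 50 counts, the pseudocount, TPM or file order. The member counts under these settings therefore have no background beside them.

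The edgeR calls depended on the fit. DESeq2 called 7 members upon TP63 silencing and 3 upon SOX2 silencing. Without the block, 0, 0 and 0 were called for TP63, SOX2 and TP63 against SOX2, and likewise 0, 0 and 0 with unnamed transcripts kept as features, which raised the dispersion. Leaving out 1 library gave 0 to 15 calls upon TP63 silencing (0 without either scramble library, 15 without KYSE140 shTP63), 0 to 6 upon SOX2 silencing (0 without either scramble library, 6 without TE5 shSOX2), 2 to 12 for TP63 against SOX2 (2 without either scramble library, 12 without TE5 shTP63) and 34 to 38 between the lines. Calls over all genes ranged from 0 to 2129 upon TP63 silencing (220 as reported; 1811 by DESeq2), 0 to 918 upon SOX2 silencing (34; 648), 0 to 2568 for TP63 against SOX2 (988; 2568) and 12976 to 17475 between the lines (15484). No called change turned its sign, but changes that were not called did; between the lines, NFKB2 ran from -0.54 to 0.15, RELB from -0.13 to 0.89, IL1RN from -0.69 to 0.93 and TNF from -0.22 to 1.55. The depth leaves members under 10 counts, such as CXCL6, without a comparison.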
